A study of Mus musculus with 8 samples.

Results

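The enzymes that make serine, proline and asparagine were described in mouse pancreatic islets, the hormone-secreting cell clusters of the pancreas, profiled by bulk RNA sequencing. The set was chosen by name and held 10 genes, namely Phgdh, Psat1, Psph, Shmt1, Shmt2, Mthfd2, Aldh18a1, Pycr1, Asns and Cth. Of these 10, 9 had a row among the 14126 genes of the table, and Cth, the cystathionine gamma-lyase gene, is not analysed here. There were 8 libraries, 4 labelled KO and 4 labelled WT. The KO libraries came from NOD/ShiLtJ mice, a strain prone to autoimmune diabetes, that the labels describe as lacking IRE1α in beta cells. The WT libraries came from NOD/ShiLtJ mice with floxed IRE1α alleles. All mice were 7 weeks old, and the labels record tamoxifen at 10 mg/ml on 5 consecutive days, given to switch on Cre recombinase, for both groups. The promoter that drives Cre, and whether WT mice carry it, have no record in the labels. Of the 9 genes 3 rose in the libraries labelled KO (Phgdh, Psat1 and Pycr1). None fell by limma-trend, at an unadjusted p under 0.05 (0 genes) or in the authors' deposited table. Over all 14121 genes tested by limma-trend, 11.1% were called higher and 9.81% lower. The median log2 fold change of the 9 genes was 0.11, against -0.0008 over all genes tested.

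Serine is built from the glycolytic intermediate 3-phosphoglycerate in a short chain of reactions by the products of Phgdh, Psat1 and Psph. Shmt1 in the cytosol and Shmt2 in mitochondria then split serine into glycine and a methylene group carried by folate, which Mthfd2 oxidises in mitochondria. Proline is built from glutamate by the products of Aldh18a1 and Pycr1, and asparagine from aspartate and glutamine by that of Asns. In mammalian cells many of these genes are induced by the transcription factor ATF4 when PERK or another kinase of eIF2α is active. IRE1α, encoded by Ern1, is a separate sensor of stress in the endoplasmic reticulum (ER), and beta cells, which make large amounts of insulin, depend on both.

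The promoters of the 3 genes that rose are shown with that of Asns, the best known amino acid response gene among them, which did not pass. Sequences are RefSeq's on GRCm38.p6, the 250 bases before the annotated start, each read 5′ to 3′ on the minus strand. They lie at chr3:98339970-98340219 for Phgdh, chr19:15925060-15925309 for Psat1, chr11:120643749-120643998 for Pycr1 and chr6:7693210-7693459 for Asns. Capitals mark TGATGNAA, the core of the C/EBP-ATF response element that ATF4 binds, and CCAAT, on either strand.
Phgdh: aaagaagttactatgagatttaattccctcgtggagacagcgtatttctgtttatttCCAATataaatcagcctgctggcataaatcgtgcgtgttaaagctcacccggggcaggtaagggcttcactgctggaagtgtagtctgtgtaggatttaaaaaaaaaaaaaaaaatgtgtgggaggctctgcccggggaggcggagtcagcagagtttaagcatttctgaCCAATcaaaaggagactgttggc
Psat1: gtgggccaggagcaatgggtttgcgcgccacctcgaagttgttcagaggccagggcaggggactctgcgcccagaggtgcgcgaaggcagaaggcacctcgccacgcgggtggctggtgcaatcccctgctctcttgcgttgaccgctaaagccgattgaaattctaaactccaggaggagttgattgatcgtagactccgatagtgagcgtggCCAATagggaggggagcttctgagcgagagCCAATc
Pycr1: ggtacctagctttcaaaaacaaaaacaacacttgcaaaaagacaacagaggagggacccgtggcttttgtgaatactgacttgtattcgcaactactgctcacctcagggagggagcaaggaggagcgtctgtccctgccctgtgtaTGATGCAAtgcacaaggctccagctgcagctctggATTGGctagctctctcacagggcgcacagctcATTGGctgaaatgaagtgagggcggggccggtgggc
Asns: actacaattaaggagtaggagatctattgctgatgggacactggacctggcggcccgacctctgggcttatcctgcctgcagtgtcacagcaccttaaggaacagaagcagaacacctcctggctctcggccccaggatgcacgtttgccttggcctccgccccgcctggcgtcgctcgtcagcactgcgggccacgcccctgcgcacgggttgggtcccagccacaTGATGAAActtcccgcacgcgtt
Promoters of 300 bases (250 before and 50 after the start) were found for 9 of 10 genes, with 2 starts for Psat1 (1 is shown), and were searched on both strands. TGATGNAA occurred in those of Pycr1 (TGATGCAA, 103 bases before the start) and Asns (TGATGAAA, 23 bases before it). It occurred in 3.97% of all 32851 promoters and, counting a gene if any of its promoters matched, in 4.51% of 27025 genes. CCAAT occurred in those of 6 genes (Phgdh, Psat1, Psph, Shmt1, Mthfd2 and Pycr1), in 37.4% of all promoters and in 41.1% of all genes. CCAAT is also a part of the ER stress response element. None of the 9 held TGACGTCA (the cyclic AMP response element), TGACGTGG (the core of the unfolded protein response element) or the ER stress response element. These occurred in 1.79%, 0.676% and 0.119% of all promoters, and in 2.03%, 0.714% and 0.137% of all genes. Pycr1 and Asns thus both carried the C/EBP-ATF core, while Phgdh and Psat1 did not carry it in this window. A match is a string of letters, and the absence of 1 here says nothing of the rest of the gene.

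The values are whole numbers on a common normalized scale, as deposited by the authors, with totals of 32024139 to 34858983 per library. These totals are not sequencing depths, which are unknown. Ern1 values were 7223, 7390, 6922 and 7216 in KO libraries and 5549, 5164, 4622 and 4500 in WT libraries, higher in KO by 0.54 ± 0.08 on the log2 scale (SE; limma-trend, adjusted p = 0.00234). A total over the whole gene can hold reads from outside the floxed exons, so it does not check the labels, and every direction below rests on them. Xbp1, whose mRNA is spliced by IRE1α, differed by -0.30 ± 0.14 on that scale and did not pass (adjusted p = 0.168). Islet markers were present in every library: Ins1 and Ins2 together took 6.24% to 8.94% of the total in KO libraries and 14.2% to 15.8% in WT libraries. Libraries numbered 3 and 4 of both labels stood apart from libraries 1 and 2, with 17 immediate early genes summing to 186629 to 370698 where the number was 3 or 4 and to 10306 to 26458 where it was 1 or 2. No label records a batch.

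The first enzymes of serine synthesis rose by more than 2.2-fold while the last did not pass the test. All log2 fold changes below are of value + 1. Phgdh, which oxidises 3-phosphoglycerate and commits it to serine (chromosome 3, 98313170 to 98339990, GRCm38), had values of 422, 353, 388 and 379 in KO libraries 1 to 4 and 145, 154, 188 and 118 in WT libraries 1 to 4. The lowest KO library lay above the highest WT library. The means were 385.5 ± 28.5 in KO and 151.2 ± 28.9 in WT libraries (SD, n = 4 each), a ratio of 2.55. On the log2 scale, of value + 1, the difference was 1.36 ± 0.15 (SE; limma-trend over 14121 genes, adjusted p = 0.000539). Over all genes tested, 11.1% were called higher and 9.81% lower, and every KO library lay above every WT library for 13.6% and below for 12.3%. The same 3 enzyme genes were called in the authors' deposited table, where 16.2% of all genes were higher and 13.1% lower, and with the replicate number as a block, where 14.2% were higher and 11.7% lower.

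Psat1, the aminotransferase of the next step, which takes its nitrogen from glutamate (chromosome 19, 15904678 to 15947337), had values of 470, 415, 448 and 445 in KO libraries and 206, 216, 199 and 182 in WT libraries. Again the groups did not overlap, and the spread within each was narrow. The means were 444.5 ± 22.6 in KO and 200.8 ± 14.3 in WT libraries (SD, n = 4 each), a ratio of 2.21 (log2 fold change of 1.14 ± 0.10, adjusted p = 0.000156, limma-trend). Psph, the phosphatase that releases serine (chromosome 5, 129765558 to 129787449), had values of 325, 307, 315 and 347 in KO libraries and 314, 326, 337 and 299 in WT libraries. Its groups overlapped almost fully, with a log2 fold change of 0.02 and a 95% interval of -0.19 to 0.23 (adjusted p = 0.905). That interval lies below those of Phgdh (1.02 to 1.70) and Psat1 (0.92 to 1.37). These are whole-islet values, in which more cells of a type and more RNA per cell cannot be told apart.

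**Figure D1:**
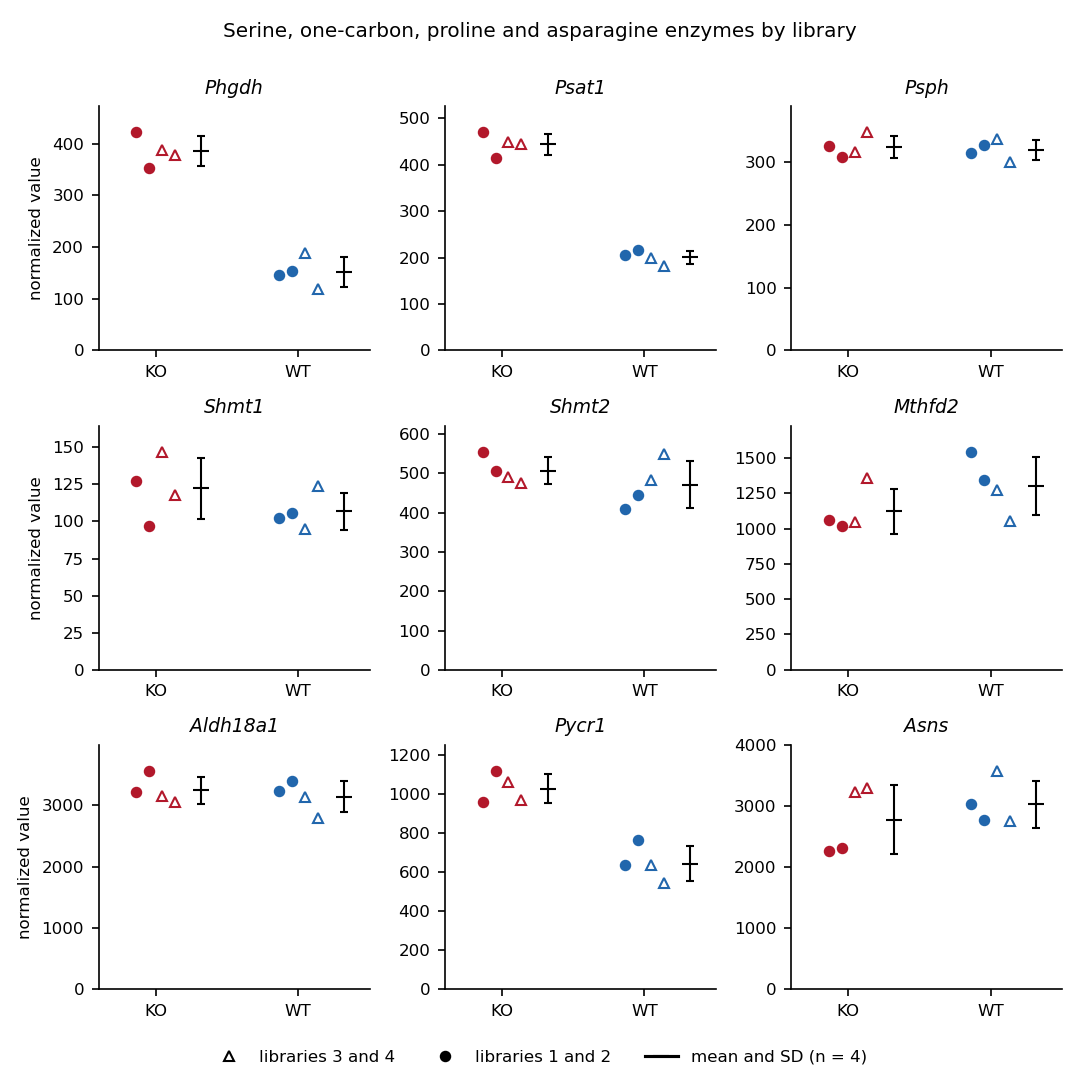
Normalized value (y axis, from 0) of each of the 9 genes in the 4 KO libraries (red, left) and 4 WT libraries (blue, right), with filled circles for libraries 1 and 2, open triangles for libraries 3 and 4, and the mean with its SD beside each group. Phgdh (353 to 422 in KO, 118 to 188 in WT), Psat1 (415 to 470 in KO, 182 to 216 in WT) and Pycr1 (961 to 1119 in KO, 543 to 766 in WT) have groups that do not overlap, and the other 6 genes have groups that do.

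Ratios within each library set these 3 genes against each other. Phgdh stood at 1.09 to 1.30 times the value of Psph in KO libraries and at 0.395 to 0.558 times in WT libraries. Psat1 stood at 1.28 to 1.45 times Psph in KO libraries and at 0.5905 to 0.663 times in WT libraries. Phgdh over Psat1 was 0.851 to 0.898 in KO libraries and 0.648 to 0.945 in WT libraries, so these neighbours in the chain overlapped between groups in their ratio. Such ratios of raw values compare groups for a fixed pair of genes, not the abundance of the pair, since gene lengths differ.

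The enzymes that pass the serine carbon to folate did not pass the test in either direction. Shmt1, the cytosolic hydroxymethyltransferase, had values of 127, 97, 147 and 118 in KO libraries and 102, 106, 95 and 124 in WT libraries (log2 fold change of 0.19, 95% interval -0.20 to 0.57, adjusted p = 0.488, limma-trend). Shmt2, its mitochondrial counterpart, had values of 555, 506, 490 and 475 in KO libraries and 409, 444, 483 and 549 in WT libraries (0.11, interval -0.14 to 0.36, adjusted p = 0.526). The WT libraries spread more widely here, and WT replicate 4 reached the level of KO replicate 1. Shmt2 over Shmt1 was 3.33 to 5.22 in KO libraries and 4.01 to 5.08 in WT libraries, which overlap. Mthfd2, the mitochondrial dehydrogenase and cyclohydrolase of the next step, had values of 1059, 1021, 1048 and 1361 in KO libraries and 1544, 1341, 1271 and 1052 in WT libraries. Its log2 fold change was -0.21 with an interval of -0.52 to 0.10 (adjusted p = 0.311). The 3 KO libraries other than replicate 4 lay between 1021 and 1059, below 3 of the 4 WT libraries.

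In proline synthesis the last enzyme rose and the first did not pass. Aldh18a1, the synthase that turns glutamate into the semialdehyde of proline and ornithine (chromosome 19, 40550257 to 40588463), had values of 3223, 3558, 3144 and 3050 in KO libraries and 3226, 3402, 3137 and 2796 in WT libraries. The groups overlapped (log2 fold change of 0.05, interval -0.14 to 0.24, adjusted p = 0.732, limma-trend). Pycr1, the mitochondrial reductase that completes proline (chromosome 11, 120635712 to 120643769), had values of 961, 1119, 1061 and 973 in KO libraries and 635, 766, 635 and 543 in WT libraries. Every KO library lay above every WT library, with means of 1028.5 ± 75.0 in KO and 644.8 ± 91.7 in WT libraries (SD, n = 4 each), a ratio of 1.60. The log2 fold change was 0.68 ± 0.11 (adjusted p = 0.00356). Its interval of 0.43 to 0.94 lay above that of Aldh18a1.

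Within each library Pycr1 over Aldh18a1 was 0.298 to 0.338 in KO libraries and 0.194 to 0.225 in WT libraries, so the groups did not overlap in this ratio. Pycrl, the cytosolic reductase gene, had values of 344, 421, 306 and 293 in KO libraries and 447, 500, 407 and 393 in WT libraries. Its groups overlapped, with a log2 fold change of -0.36 ± 0.14 that did not pass (adjusted p = 0.0930, limma-trend). With the replicate block, which assumes that same-numbered libraries are paired, it was called lower (adjusted p = 0.0326).

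**Figure D2:**
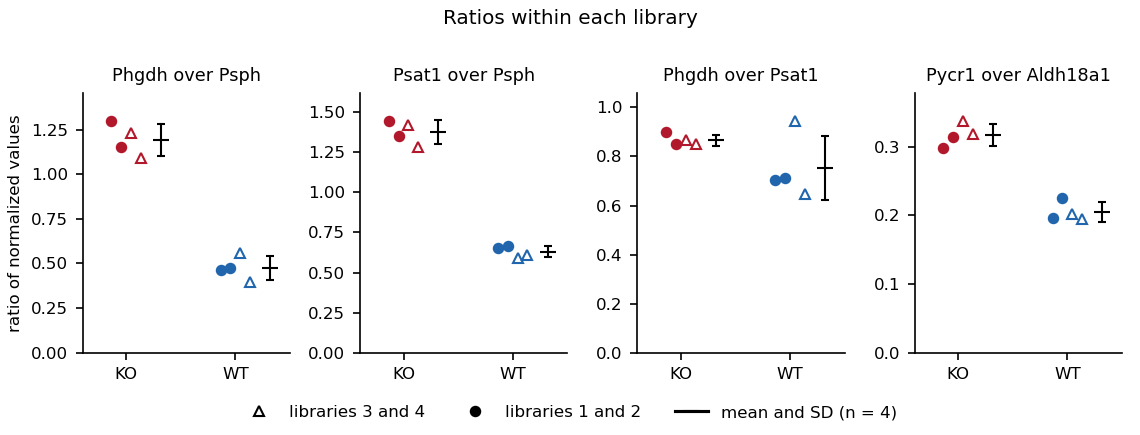
Ratio of 2 normalized values within each library (y axis, from 0, no unit) for 4 gene pairs, with KO libraries (red) left of WT libraries (blue), filled circles for libraries 1 and 2, open triangles for libraries 3 and 4, and the mean with its SD (n = 4). No KO library overlaps a WT library for Phgdh over Psph, Psat1 over Psph or Pycr1 over Aldh18a1, while Phgdh over Psat1 overlaps (0.851 to 0.898 in KO, 0.648 to 0.945 in WT).

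Asns, which amidates aspartate with the nitrogen of glutamine (chromosome 6, 7675169 to 7693254), did not pass. Its values were 2268, 2315, 3236 and 3302 in KO libraries and 3036, 2769, 3579 and 2756 in WT libraries. KO libraries 1 and 2 were the lowest of the 8, and KO libraries 3 and 4 lay within the range of WT libraries. The log2 fold change was -0.14, with an interval of -0.48 to 0.20 (adjusted p = 0.555, limma-trend). A rise the size of that of Pycr1 (0.68) lies outside this interval.

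Per kilobase of merged exons (GENCODE M21) the genes spanned a wide range of levels. In KO libraries the order from high to low was Asns (1017 ± 207, SD, n = 4), Aldh18a1 (797 ± 54), Mthfd2 (322 ± 46), Pycr1 (261 ± 19), Shmt2 (163 ± 11), Phgdh (155 ± 11.5), Psat1 (104 ± 5.3), Psph (74.7 ± 4.0) and Shmt1 (31.5 ± 5.3). In WT libraries it was Asns (1110 ± 141), Aldh18a1 (771 ± 63), Mthfd2 (373 ± 58), Pycr1 (164 ± 23), Shmt2 (152 ± 19), Psph (73.7 ± 3.8), Phgdh (60.8 ± 11.6), Psat1 (47.2 ± 3.4) and Shmt1 (27.5 ± 3.2). Neighbours whose ranges over libraries overlapped were Asns and Aldh18a1, and Shmt2 and Phgdh, in KO libraries. In WT libraries they were Pycr1 and Shmt2, Psph and Phgdh, and Phgdh and Psat1. Compared within each library, Phgdh and Psat1 stood above Psph in every KO library and below it in every WT library. Some reads could belong to neighbours on the opposite strand, since the strandedness of the kit is not given. Of the exon bases of Psph, 10.4% are shared with Cct6a, of those of Shmt1 4.74% with Smcr8 and of those of Shmt2 1.03% with Ndufa4l2. Phgdh has an annotated processed pseudogene, Phgdh-ps1, so the division of its reads is uncertain.

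The 3 rises were seen in both sets of libraries, while Shmt2, Mthfd2 and Asns differed in sign between the sets. For Phgdh the log2 fold change was 1.36 in either set. Psat1 rose by 1.23 within libraries 3 and 4 and by 1.06 within libraries 1 and 2, and Pycr1 by 0.79 within libraries 3 and 4 and by 0.57 within libraries 1 and 2. Mthfd2 had a log2 fold change of 0.05 within libraries 3 and 4 and of -0.47 within libraries 1 and 2, where it was called lower (adjusted p = 0.0271, limma-trend). Asns had a difference of 0.06 within libraries 3 and 4 and of -0.34 within libraries 1 and 2, where it was also called lower (adjusted p = 0.0416). The background for these calls was 11.3% of genes higher and 11.4% lower within libraries 3 and 4, and 12.3% higher and 10.9% lower within libraries 1 and 2. Shmt2 differed by -0.09 within libraries 3 and 4 and by 0.31 within libraries 1 and 2. The difference itself passed for none of the 9 genes (interaction term, limma-trend, lowest adjusted p = 0.229 for Mthfd2, 3 genes at an unadjusted p under 0.05), and for 0.0991% of all genes. No gene of the 9 differed between libraries 3 and 4 and libraries 1 and 2 with genotype in the model (limma-trend, 1 at an unadjusted p under 0.05). Between the sets 9.38% of all genes were higher and 6.06% lower where the number was 3 or 4. The largest such difference among the 9 was that of Asns, 0.31 on the log2 scale (adjusted p = 0.0816).

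**Figure D3:**
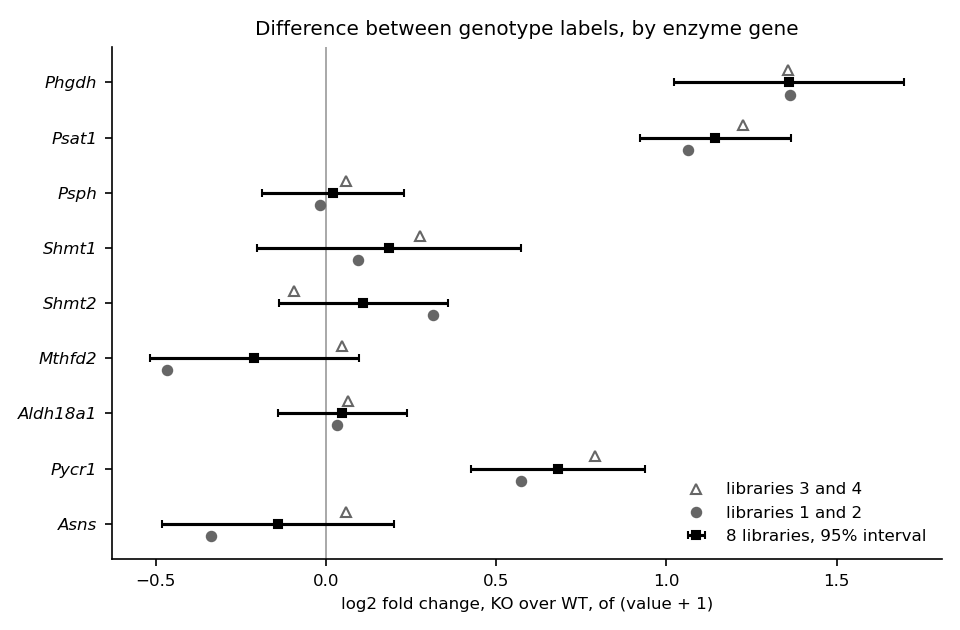
Log2 fold change of value + 1, KO over WT (x axis), for each of the 9 genes, with black squares and bars for the estimate from 8 libraries and its 95% interval, open triangles for libraries 3 and 4 and filled circles for libraries 1 and 2. The intervals of Phgdh (1.02 to 1.70), Psat1 (0.92 to 1.37) and Pycr1 (0.43 to 0.94) exclude 0, and those of the other 6 genes include it.

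Cell type markers moved with the labels too, against 11.1% of all genes called higher and 9.81% called lower. Of 11 beta cell markers 8 fell and none rose (none at an unadjusted p under 0.05), with summed levels of 2549379 to 3497714 in KO and 5376313 to 6016581 in WT libraries. That count was 5 without KO replicate 1 or without KO replicate 3. Of 9 alpha cell markers 7 rose, with sums of 1935730 to 2640615 in KO and 419718 to 1058006 in WT libraries. The alpha count was 5 without KO replicate 1 or without KO replicate 2, and 8 without WT replicate 3 or without WT replicate 4. All 6 delta and PP cell markers rose, with sums of 277530 to 391762 in KO and 103878 to 170702 in WT libraries. Within libraries 3 and 4 alone 5 alpha and 5 delta and PP cell markers rose, against 11.3% of all genes. None of these markers was at 0 in any library, and their part in the rises of Phgdh, Psat1 and Pycr1 was not tested. Acinar cells, the enzyme-secreting exocrine cells, left sums over 23 markers of 213608 to 630180 in KO and 35224 to 411012 in WT libraries, with 2 markers higher, 1 lower and 20 not passing. Without WT replicate 3, the highest WT library in that sum, 15 acinar markers were higher, as were 20 in the authors' deposited table. With the mean log2 level of the acinar markers as a covariate Phgdh, Psat1 and Pycr1 were still called higher. So were 4 of the 9 alpha cell markers and 5 of the 6 delta and PP cell markers. Of 10 ductal markers 3 rose, or 1 when KO replicate 2, KO replicate 3, WT replicate 1 or WT replicate 2 was left out. Of 12 endothelial and stellate markers 1 rose, or 6 with the replicate block, where 14.2% of all genes were higher. By limma-trend none of 12 macrophage and leukocyte markers, 14 proliferation markers or 17 immediate early genes was called, with 1, 0 and 0 at an unadjusted p under 0.05. Within libraries 3 and 4 alone 10 immediate early genes were lower, against 11.4% of all genes. Within libraries 1 and 2 alone 7 were higher, against 12.3% of all genes.

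Other genes of serine, glycine and folate metabolism moved in both directions. Of 27 measured genes 4 rose, 7 fell and 16 did not pass, with a median log2 fold change of 0.02. Over all genes tested 11.1% were called higher and 9.81% lower. Gldc, of the glycine cleavage system, had values of 97, 95, 105 and 88 in KO libraries and 24, 28, 43 and 48 in WT libraries (log2 fold change of 1.46 ± 0.26, adjusted p = 0.00493, limma-trend). The other rises were in mitochondrial folate enzymes, Aldh1l2 (0.83 ± 0.14) and Mthfd2l (0.68 ± 0.15), a paralog of Mthfd2, and in Ggh, a folate hydrolase gene (0.60 ± 0.13). Mthfd2 over Mthfd2l was 6.34 to 8.10 in KO libraries and 8.92 to 15.7 in WT libraries. Adding the mean log2 level of the acinar markers as a covariate ended the call of Ggh (adjusted p = 0.0699). The call of Mthfd2l ended when either set of libraries was fitted alone (highest adjusted p = 0.0661).

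The falls included folate enzymes of the cytosol and of mitochondria. Mthfd1, the trifunctional folate enzyme of the cytosol, had values of 2513, 2922, 2290 and 2435 in KO libraries and 4999, 5368, 4626 and 4711 in WT libraries (log2 fold change of -0.96 ± 0.09, adjusted p = 0.000275, limma-trend). Mthfd1l, the mitochondrial formate-producing synthetase gene, fell by 0.65 and Sfxn2, a sideroflexin gene, by 0.94 on the log2 scale. Gcat, which makes glycine from a product of threonine, had values of 533, 726, 574 and 454 in KO libraries and 1248, 1358, 1377 and 1309 in WT libraries (-1.23 ± 0.13, adjusted p = 0.000519). Gnmt, a glycine methyltransferase gene (-1.22), and Gart, of purine synthesis (-0.42), fell too, but these calls ended under 9 and 10 of 20 other settings (highest adjusted p = 0.107 and 0.156).

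**Figure D4:**
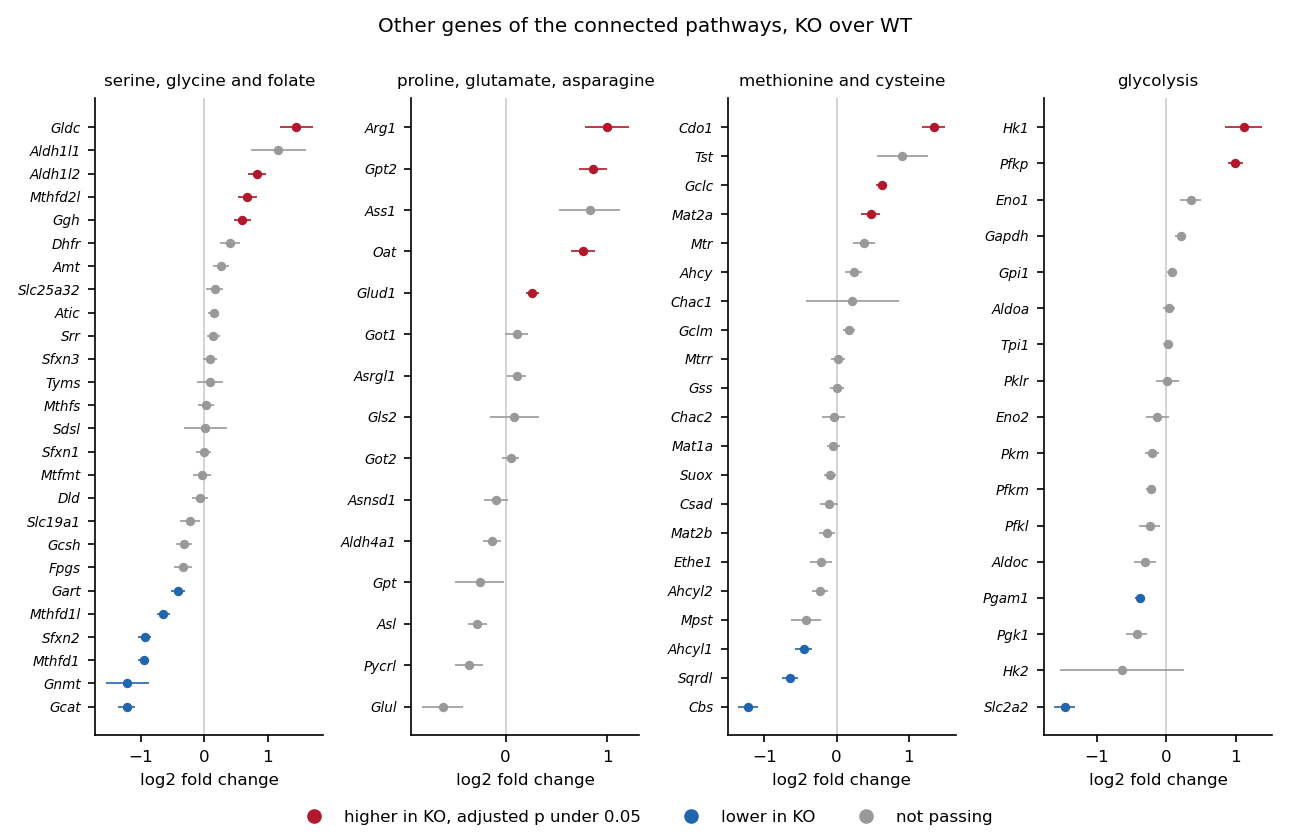
Log2 fold change of value + 1, KO over WT (x axis; scales differ between panels), with its standard error for genes of 4 connected pathways, ordered by size, in red where higher and blue where lower at an adjusted p under 0.05 and grey where not passing. Each panel holds genes on both sides of 0, from Gcat (-1.23) to Gldc (1.46) in the serine, glycine and folate panel and from Glul (-0.62, adjusted p = 0.0612, and 0.00444 with the replicate block) to Arg1 (1.00) in the proline, glutamate and asparagine panel.

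Among genes that supply or use glutamate, proline and asparagine, 5 of 17 rose, 1 fell and 11 did not pass, with a median log2 fold change of 0.09. The shares over all genes tested were 11.1% higher and 9.81% lower. Blocking on replicate number gave 6 rises and 3 falls among the 17, against 14.2% and 11.7% of all genes. Of the 17 genes 2 fell without KO replicate 2 or without KO replicate 3. Arg1, the arginase that yields ornithine, had values of 1790, 2936, 1301 and 1541 in KO libraries and 960, 965, 853 and 839 in WT libraries (log2 fold change of 1.00 ± 0.22, adjusted p = 0.0130, limma-trend). Oat, which converts ornithine to the precursor of proline, rose by 0.76 ± 0.12. Gpt2, the mitochondrial alanine aminotransferase gene, rose by 0.86 ± 0.14 on the log2 scale. Glud1, the glutamate dehydrogenase gene, rose by 0.26 ± 0.06, a call that ended under 6 of 20 other settings (highest adjusted p = 0.0918). The aspartate aminotransferase genes Got1 and Got2, which feed Asns, had log2 fold changes of 0.11 and 0.05 that did not pass.

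Serine also feeds cysteine through transsulfuration, whose enzymes are encoded by Cbs and Cth. Of 21 measured genes of methionine and cysteine metabolism 3 rose, 3 fell and 15 did not pass. Against these counts stood shares of 11.1% higher and 9.81% lower over all genes tested. Their median log2 fold change, for the 21 genes, was -0.04. In the table that the authors deposited, 5 of the 21 rose and 3 fell, against 16.2% and 13.1% of all genes. Cbs, the synthase that joins serine to homocysteine, had values of 1288, 1954, 1426 and 1241 in KO libraries and 3300, 3642, 3340 and 3330 in WT libraries (log2 fold change of -1.23 ± 0.14, adjusted p = 0.000557, limma-trend). Every KO library lay below every WT library. Sqrdl, a mitochondrial sulfide oxidase gene, fell by 0.64 ± 0.11. Cdo1, which oxidises cysteine towards taurine, rose by 1.34 ± 0.16, and Gclc, the catalytic subunit gene for the committed step of glutathione synthesis, by 0.62 ± 0.08. Mat2a, which makes S-adenosylmethionine (0.47 ± 0.13), and Ahcyl1 (-0.46 ± 0.12) were called as well, but these calls ended under 7 and 5 of 20 other settings (highest adjusted p = 0.175 and 0.0939).

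Among 19 genes of glucose uptake and glycolysis, before and after 3-phosphoglycerate, 3 rose, 3 fell and 13 did not pass. Their median log2 fold change was -0.13. The shares over all genes tested were 11.1% higher and 9.81% lower. Within libraries 3 and 4 alone 5 of the 19 fell, against 11.4% of all genes. Pgam1, the mutase that draws on the same 3-phosphoglycerate as Phgdh, had values of 3616, 3854, 3732 and 3940 in KO libraries and 5320, 5024, 4950 and 4425 in WT libraries (log2 fold change of -0.38 ± 0.08, adjusted p = 0.00817, limma-trend). That call ended in libraries 3 and 4 alone (adjusted p = 0.0723). Slc2a2, the glucose transporter gene of beta cells, fell by 1.46 ± 0.15 on the log2 scale. Hk1 and Pfkp, hexokinase and phosphofructokinase genes, rose by 1.11 ± 0.26 and 1.00 ± 0.10. The call of Hk1 ended once the mean log2 level of the acinar markers was a covariate (adjusted p = 0.101, limma-trend).

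Of 16 genes for ATF4, its partners and the eIF2α kinases 2 rose and none fell (limma-trend, 4 higher and 0 lower at an unadjusted p under 0.05). Over all genes tested 11.1% were called higher and 9.81% lower. The median log2 fold change of the 16 genes was 0.19. That median was 0.42 without KO replicate 2, -0.04 without KO replicate 3, 0.0059 without KO replicate 4, -0.02 without WT replicate 1, -0.005 without WT replicate 2, 0.46 without WT replicate 3 and 0.52 without WT replicate 4, so its sign rests on single libraries. It was -0.06 with the mean log2 level of the acinar markers as a covariate. Blocking on replicate number gave 5 rises and 1 fall, that of Atf4, where 14.2% of all genes were higher and 11.7% lower. The authors' deposited table had 6 of the 16 genes higher and none lower, against 16.2% and 13.1% of all genes. Within libraries 3 and 4 alone 6 were higher and 4 lower, against 11.3% and 11.4% of all genes. Atf4 itself had values of 6265, 6344, 11956 and 12925 in KO libraries and 7595, 7767, 16584 and 15573 in WT libraries, a log2 fold change of -0.33 ± 0.35 that did not pass (adjusted p = 0.547). Libraries 3 and 4 of both labels were high, and at each number the KO library lay below the WT library. With the replicate block, and so with pairing by number assumed, Atf4 was called lower (-0.33 ± 0.07, adjusted p = 0.0191, limma-trend). Ddit3 and Nupr1, stress-induced genes, and Jdp2, a bZIP factor gene, did not pass without the block and were called higher with it, by 0.98 ± 0.23, 1.54 ± 0.28 and 0.63 ± 0.19. Trib3, a pseudokinase gene and ATF4 target, had values of 443, 297, 525 and 633 in KO libraries and 72, 56, 220 and 150 in WT libraries (2.08 ± 0.43, adjusted p = 0.00948). Sesn2, a stress-induced sestrin gene, rose by 0.84 ± 0.15.

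The pattern over libraries most like the mean of the 9 genes was sought among genes with a mean value of at least 100, by Pearson's r of log2(value + 1) over the 8 libraries. The 8 highest were Fam126a (r = 0.962), Panx1 (0.959), Vopp1 (0.959), Jam3 (0.952), Rpl22 (0.949), Fam189a2 (0.948), Rpap2 (0.948) and Spsb4 (0.947). These are descriptions over 8 libraries that differ by label, and any gene higher in KO libraries scores high. Spsb4 had the largest difference among the 8 genes, with means of 202.0 ± 38.0 in KO and 62.8 ± 10.0 in WT libraries (SD, n = 4 each). Its log2 fold change was 1.66 ± 0.20 (adjusted p = 0.000712, limma-trend). Jam3, Rpl22 and Rpap2 did not pass between labels (adjusted p = 0.0946, 0.0641 and 0.0618, limma-trend). The call of Fam126a ended with the replicate block (adjusted p = 0.0636, limma-trend).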

How the data were processed

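Bulk RNA sequencing of islets from 8 mice was analysed, 4 libraries per genotype label; the design text gives 4 mice per group. The authors' tools, per the submitters' processing notes, included RSEM 1.2.31 and edgeR 3.16.15, after bcl2fastq 2.20 and STAR 2.5.3a, with build GRCm38.p5 and no settings recorded in the labels. The authors' deposited file holds per-library values, a score rather than raw counts, since their median-of-ratios factors lie between 0.994 and 1.01, and the authors' log2 fold change and log2 CPM, likelihood ratio score, p-value and adjusted p-value. Depth per library is unknown, so precision rests on the spread between 4 libraries.

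Values were analysed as log2(value + 1) with limma-trend (limma 3.58.1, R 4.3.3), on the 14121 genes that reached a value of 1 in 4 or more libraries, with Benjamini-Hochberg adjustment over them and a threshold of 0.05. Intervals are 95% intervals from the same fit. No count test was run. The script was tested on simulated data. Alternatives covered pseudocount, filter, scaling, replicate block, library set, acinar covariate, each library left out, each set alone and the authors' table.

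Both groups carry the numbers 1 to 4 in the labels. Deviations of same-numbered libraries from their group means correlated across 13081 genes with r of 0.327, 0.583, 0.664 and 0.381, all above 0.1. For numbers 1 and 4 the correlation with some library of another number was higher (0.433 and 0.466). Since the library sets also differ, these correlations cannot tell pairing by number from the difference between sets. Pairing by number was thus assumed for the replicate block, no label records it, and calls made with the block rest on it. The block changed no call among the 9 enzyme genes.

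Genes were named as the 9 enzymes, up to 4 called genes per pathway list with the largest change, Ern1, Xbp1 and the 8 genes most alike in pattern. Other called genes of these lists, and Pycrl, Glul, Got1, Got2, Atf4, Ddit3, Nupr1 and Jdp2, were named after their values were seen. The enzymes and all lists were chosen with earlier results of these data known. Coordinates and exon lengths are from GENCODE M21 (GRCm38). Some genes of the pathway lists are counted but not reported here by name.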

Additional observations from a re-analysis of the deposited data

Results flagged for a closer look

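Mthfd2 in KO replicate 4 stood apart from the other 3 KO libraries, with a value of 1361 against 1021 to 1059. Its gap to the nearest of them was 0.888 of the range of the group. Of the 18 groups of 4 libraries examined (9 genes, KO and WT), this was the only 1 so marked, and chance marks about 1 in 20. Without KO replicate 4 the log2 fold change of Mthfd2 was -0.31 (adjusted p = 0.112, limma-trend), and with 8 libraries -0.21 (adjusted p = 0.311).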

How the results depend on the processing

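Phgdh, Psat1 and Pycr1 were called higher under all 20 alternatives, with log2 fold changes of 1.25 to 1.47, 1.06 to 1.23 and 0.57 to 0.79. Of the 9 enzyme genes 3 were higher and none lower without any 1 library (3 to 3, and 0 to 0), and 2 (Mthfd2 and Asns) were lower in libraries 1 and 2 alone. Over all genes the counts were 1562 higher and 1385 lower. They were 2400 and 2102 with library set as a term, 1999 and 1649 with the replicate block, and 1121 to 1684 and 863 to 1599 without 1 library. The lowest counts of lower genes were 863 without WT replicate 2 and 909 without KO replicate 4. The share of calls that were higher was 53.0%, and 63.2% with totals free of hormone and mitochondrially encoded genes. The interaction called 14 genes, and 26 with equal totals. Small differences changed sign without being called: Psph (-0.014 to 0.047 without 1 library, -0.018 in libraries 1 and 2), Aldh18a1 (-0.0066 to 0.088 without 1 library), and in libraries 3 and 4 Shmt2 (-0.094), Mthfd2 (0.047) and Asns (0.058). The cause was not tested. Depth is unknown, so a small difference of a low gene such as Shmt1 was not detectable beyond its interval.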
